A study of Mus musculus with 8 samples.

Results

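Interferon-stimulated genes were followed in Paneth cells sorted from mouse small intestine. The list held 41 genes, chosen by symbol, of the 55414 gene rows of the count table, and all 41 were found there. A filter on low counts left 33 of the 41, among 11929 tested genes in all. The TG group held 4 libraries (TG-1 to TG-4) of Paneth cells from transgenic mice that express diphtheria toxin in these cells, and the WT group held 4 libraries (WT-1 to WT-4) of Paneth cells from wild type mice. The comparison asks how the RNA of the sorted Paneth cells differs when toxin is expressed in them. The series is described as a profile of cells purified after depletion of mature Paneth cells, so the TG libraries hold the cells that were sorted after it. The sample titles name diphtheria toxin for TG and WT control for WT, and no other agent is named. No source used here gives the promoter that drives the toxin, the age of the mice or the strain of the TG mice. The study describes C57BL/6J mice and a sort for CD24+ c-Kit+ cells that lack CD31, CD45 and TER119.

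Interferons are secreted proteins that bind receptors on the cell surface and switch on a shared set of genes. Type I and type III interferons act through the receptor kinases JAK1 and TYK2 and a complex that contains STAT2 and IRF9, which binds the interferon-stimulated response element (ISRE). Interferon gamma acts through JAK1 and JAK2 and a STAT dimer that binds the gamma-activated site (GAS). The induced genes include sensors of viral RNA, enzymes that stop viral translation, membrane proteins that block viral entry or release, and large GTPases that attack the vacuoles of intracellular microbes. In the intestinal epithelium, type III interferon is known for antiviral defence and interferon gamma for defence against intracellular parasites and bacteria.

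Total counts per library ranged from 13107397 to 16218434. Values are CPM (counts per 1000000 counts of a library) scaled with TMM factors unless another scale is named, and a gene is called when the adjusted p of edgeR's quasi-likelihood test over all 11929 genes is below 0.05. The Paneth cell markers were abundant in both groups, with summed levels of 333623 to 420202 CPM in TG and 315884 to 467760 CPM in WT, although 3 of the 6 (Mmp7, Ang4 and Mptx2) were called lower in TG. Enterocyte markers were called higher in TG for 6 of 11 genes, and their sum was 149 to 286 CPM in TG and 76 to 132 CPM in WT. The part of these cells in the results below was not tested. Of 12 immune markers none passed the filter, their sum was 1.12 to 2.48 CPM in TG and 0.399 to 1.95 CPM in WT, and Csf1r, Nkg7 and Gzma had 0 counts in all 8 libraries. The 6 stromal and endothelial markers had at most 3 counts per gene and library, with Cdh5 at 0. None of 6 goblet and none of 4 tuft markers was called, while 1 of 4 tested enteroendocrine markers (Tac1) and 1 of 4 stem cell markers (Smoc2) were called lower. Y-linked genes had no counts in TG-1, TG-2, WT-1 and WT-2 and 897 to 1564 counts in the other 4 libraries.

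The promoters were read first, from 250 bases before to 50 bases after the annotated start of each gene (GRCm39, GENCODE M39). A core ISRE, TTTCNNTTTC on either strand, was present in 20 of the 41 promoters (48.8%), against 3.43% of the 11293 tested protein-coding genes. A core GAS, TTCNNNGAA, was present in 12 of the 41 (29.3%), against 7.46% of those genes. The promoters of Irgm1 and Bst2 are shown because these are the 2 members with a core ISRE among the 7 that were called lower in TG. Those of Isg15, Usp18 and Ifit1 are shown beside them as classical interferon targets that were weakly expressed here. Each stretch is written 5′ to 3′ on the strand of its gene and ends before the start of transcription. Capitals mark the core ISRE, on whichever strand it lies, and overlapping matches run together.
Irgm1, chr11:48762248-48762312, minus strand: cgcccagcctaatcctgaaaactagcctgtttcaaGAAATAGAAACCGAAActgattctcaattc
Bst2, chr8:71990196-71990281, minus strand: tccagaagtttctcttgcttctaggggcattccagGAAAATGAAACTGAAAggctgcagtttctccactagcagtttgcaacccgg
Isg15, chr4:156285304-156285388, minus strand: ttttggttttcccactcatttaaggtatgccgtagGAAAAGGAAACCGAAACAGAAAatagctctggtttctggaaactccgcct
Usp18, chr6:121222747-121222850, plus strand: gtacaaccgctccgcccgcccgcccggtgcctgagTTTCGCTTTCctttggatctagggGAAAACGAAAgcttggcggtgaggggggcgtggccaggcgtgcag
Ifit1, chr19:34618150-34618248, plus strand: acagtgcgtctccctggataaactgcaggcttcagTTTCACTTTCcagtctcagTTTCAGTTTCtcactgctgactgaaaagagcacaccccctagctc
A core ISRE was thus held by 2 of the 7 members called lower (28.6%), by 12 of the 25 tested members that were not called (48%) and by 6 of the 8 members that did not pass the filter (75%). A core GAS was held by 2 of the 7 members called lower, Irf8 and Bst2. These matches are letters in a window, and no binding was measured.

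Of the 33 tested members, 7 were called lower in TG (21.2%), namely Ifitm3, Irgm1, Igtp, Lgals3bp, Uba7, Irf8 and Bst2, and 1 was called higher (3.03%), namely Trim25. Of all tested genes, 9.65% were called lower and 8.26% higher. The other 25 members were not called. The fitted log2 fold change of TG over WT was below 0 for 30 of the 33 members and above 0 for 3, with a median of -0.37, where the median of all tested genes was 0.01. The 4 TG libraries lay below the 4 WT libraries for 7 tested members (Ifitm3, Irgm1, Igtp, Lgals3bp, Uba7, Bst2 and Oasl2), and above them for Trim25. Over all tested genes these shares were 12.0% and 10.0%. The summed level of all 41 members was 785, 696, 752 and 634 CPM in TG-1 to TG-4 and 871, 920, 885 and 796 CPM in WT-1 to WT-4, so that the highest TG library, TG-1, lay just under WT-4. Without Ifitm3 the sums were 755, 672, 715 and 620 CPM in TG and 779, 829, 786 and 715 CPM in WT, and TG-1 lay above WT-4. When libraries were scaled by total counts alone, the median of all genes moved to 0.12 and that of the members to -0.26, and 3 members (Ifitm3, Irgm1 and Igtp) stayed called lower, with Trim25 called higher, beside 2.20% lower and 6.60% higher of all genes. In sorted bulk samples, fewer cells that express a gene and less RNA of that gene per cell cannot be told apart. The edgeR p-values weigh the difference between groups against the spread between these libraries, moderated over genes. The study describes its libraries in general as made from individual mice, and the labels do not tie these to animals.

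**Figure D1:**
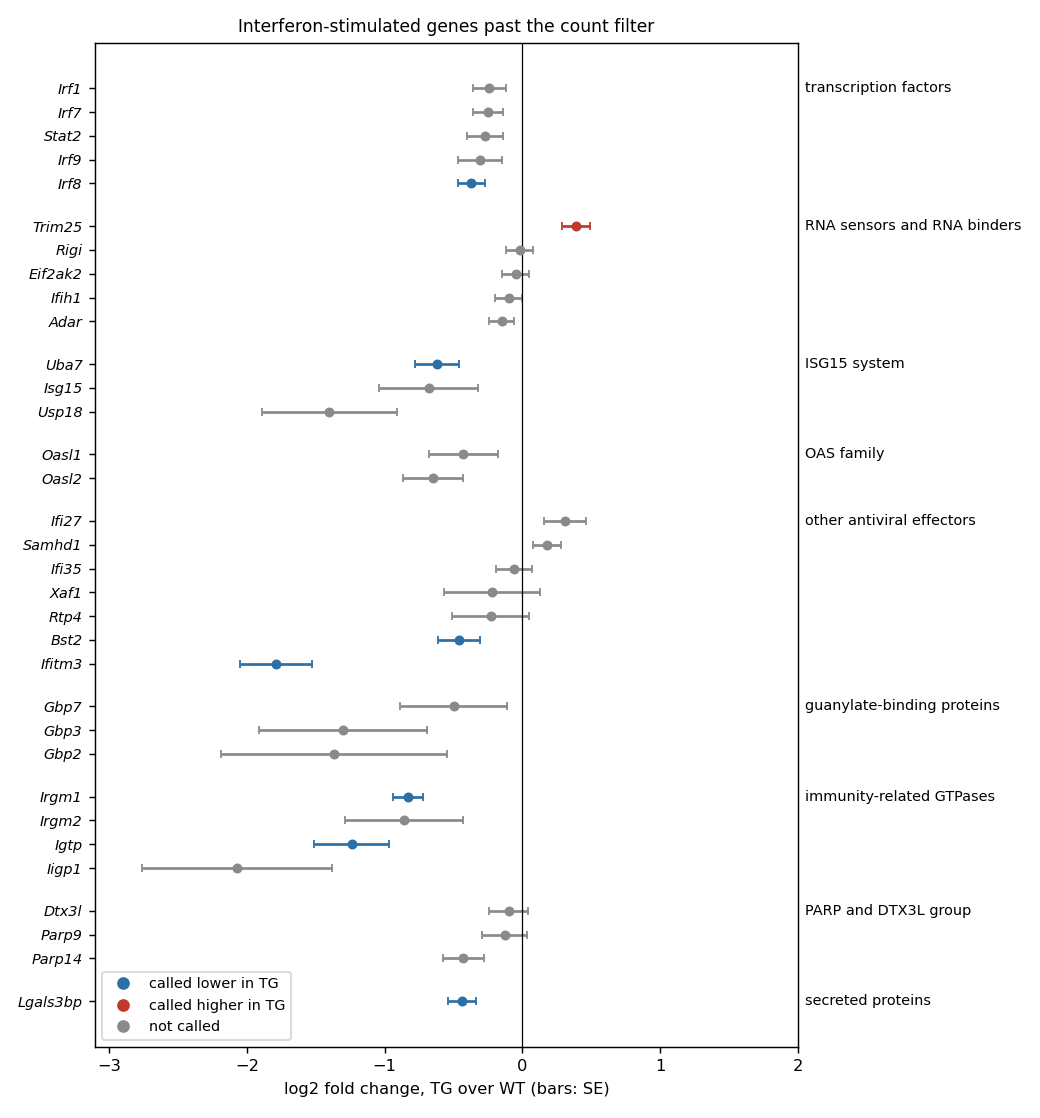
Log2 fold change of TG over WT (horizontal axis, bars are SE) for the 33 tested members, grouped by role, with called members in colour. Most points lie left of 0, Trim25 is the only called member to the right, and the members with the widest bars are low-count genes such as Iigp1 and Gbp2.

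The transcription factors on the list carry or amplify the interferon signal. Irf8, a factor known from myeloid cells, measured 48.4, 45.6, 52 and 43.3 CPM in the TG libraries and 66.2, 63.1, 66 and 50.3 CPM in the WT libraries. Only WT-4 reached down into the TG range, just under TG-3. Irf8 fell by 0.37 ± 0.10 on the log2 scale (SE, edgeR adjusted p = 0.0206). This call did not survive leaving out TG-1 (adjusted p = 0.0596), TG-2 (0.0665) or TG-4 (0.0516). Irf8 was therefore present at 43.3 CPM or more in a sort where Ptprc, which encodes CD45, measured 0.0798 to 0.62 CPM per library. The other 4 factors were not called, at log2 fold changes of -0.24 for Irf1, -0.25 for Irf7, -0.27 for Stat2 and -0.31 for Irf9. Irf1, the early factor downstream of interferon gamma, had 34.4 to 54.5 CPM in TG and 49.2 to 60.9 CPM in WT. Stat2 and Irf9, the partners in the ISRE-binding complex, had 18.5 to 27.7 and 10.7 to 17.8 CPM in TG and 25.5 to 35.3 and 14.7 to 22.1 CPM in WT, with overlapping groups.

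Of the 5 genes for sensing and binding viral RNA, 1 was called. Trim25, the ubiquitin ligase that helps RIG-I to signal, rose in TG. Its levels were 140, 137, 113 and 111 CPM in TG and 96.7, 104, 87.2 and 94.8 CPM in WT. Every TG library lay above every WT library, with TG-1 and TG-2 highest. This was a log2 fold change of 0.39 ± 0.10 (SE, edgeR adjusted p = 0.0166), and the adjusted p was 0.0641 without TG-1 and 0.0622 without TG-2. The sensors themselves were not called. Rigi, which encodes RIG-I, had 15.9 to 18.2 CPM in TG and 16 to 18.6 CPM in WT, a log2 fold change of -0.02 ± 0.10 (SE, edgeR adjusted p = 0.908). Ifih1, which encodes the sensor MDA5, had a log2 fold change of -0.10 ± 0.10. Eif2ak2, the kinase PKR that halts translation on double-stranded RNA, stood at -0.05 ± 0.10, and Adar, which edits double-stranded RNA, at -0.15 ± 0.09. The fitted values for Rigi, Ifih1 and Eif2ak2 lay above 0 when libraries were scaled by total counts alone, at 0.09, 0.01 and 0.06, which are smaller than their standard errors.

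ISG15 is a small ubiquitin-like protein that is joined to other proteins, UBA7 is the enzyme that activates it and USP18 removes it and also silences the type I receptor. Uba7 measured 11.9, 8.15, 13.3 and 9.26 CPM in TG and 14, 20, 17.6 and 14.3 CPM in WT. All 4 TG libraries lay below all 4 WT libraries, TG-3 and WT-1 being closest. Uba7 fell by 0.62 ± 0.16 on the log2 scale (SE, edgeR adjusted p = 0.0190), and without TG-2 the adjusted p was 0.0629. Usp18 measured 1, 0.141, 0.789 and 0.228 CPM in TG and 1.52, 2.16, 1.54 and 0.743 CPM in WT. TG-1 and TG-3 reached into the WT range because of the low WT-4. Its log2 fold change of -1.40 ± 0.49 was not called (edgeR adjusted p = 0.0612), although the adjusted p was 0.0476 without WT-4. Isg15 itself held only 94 counts over the 8 libraries, with 0.451 to 0.914 CPM in TG and 0.798 to 1.19 CPM in WT, and was not called (log2 fold change -0.68 ± 0.36, edgeR adjusted p = 0.200).

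The most familiar interferon targets were close to undetected in both groups. The IFIT genes did not pass the filter, with 59 counts over all 8 libraries for Ifit1, 72 for Ifit2 and 2 for Ifit3. Rsad2, which encodes viperin, had 41 counts, Oas2 had 74, Ifi44 had 40, the chemokine gene Cxcl10 had 61 and the GTPase gene Tgtp1 had 45. The filter kept these 8 genes out of the reported fit, and alternatives tested them, except that DESeq2 gave no adjusted p for Ifit3. Without the filter edgeR called 3 of them lower, at an adjusted p of 0.00898 for Ifi44, 0.0259 for Tgtp1 and 0.013 for Cxcl10, while DESeq2 called 1, Ifi44 (adjusted p = 0.0214). Over all genes these fits called 6.28% and 10.0% lower. Ifi44 had 0 to 3 counts in TG and 4 to 17 in WT, without overlap. Cxcl10 had 0 to 11 counts in TG and 2 to 22 in WT, and Tgtp1 had 1 to 4 in TG and 1 to 17 in WT, so that their groups overlapped. Oligoadenylate synthetase-like genes were better covered. Oasl2 measured 5.69, 4.85, 5.64 and 2.89 CPM in TG and 6.07, 9.88, 7.42 and 6.62 CPM in WT. Its groups did not overlap, with WT-1 just above TG-1. The log2 fold change of -0.65 ± 0.22 was not called (edgeR adjusted p = 0.0517), and the adjusted p was 0.0398 without WT-1. Oasl1 had a log2 fold change of -0.43 ± 0.25 and was not called.

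Ifitm3, a membrane protein that blocks the fusion of viruses with endosomes, showed the largest change of any called member. It measured 29.7, 23.6, 37.2 and 13.9 CPM in TG and 91.8, 91.1, 99.1 and 81.7 CPM in WT. The highest TG library lay well under the lowest WT library. The mean was 26.1 ± 9.86 CPM in TG and 90.9 ± 7.12 CPM in WT (SD, n = 4 each), and the fitted level in TG was 0.289 of that in WT (log2 fold change -1.79 ± 0.26 SE, edgeR adjusted p = 0.0038). The TG libraries also differed among themselves, with TG-4 lowest and TG-3 highest. Bst2, or tetherin, which holds budding viruses at the cell surface, measured 6.25, 5.2, 5.92 and 6.83 CPM in TG and 9.1, 7.65, 8.96 and 7.58 CPM in WT. Its groups did not overlap, but TG-4 and WT-4 were near each other. Bst2 fell by 0.46 ± 0.15 on the log2 scale (SE, edgeR adjusted p = 0.0426), and the call held only without TG-4 or without WT-2 when libraries were left out in turn. The adjusted p was 0.0946 without TG-1, 0.127 without TG-2, 0.0892 without TG-3, 0.0871 without WT-1, 0.0839 without WT-3 and 0.0559 without WT-4. Bst2 was the least stable of the called members.

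**Figure D2:**
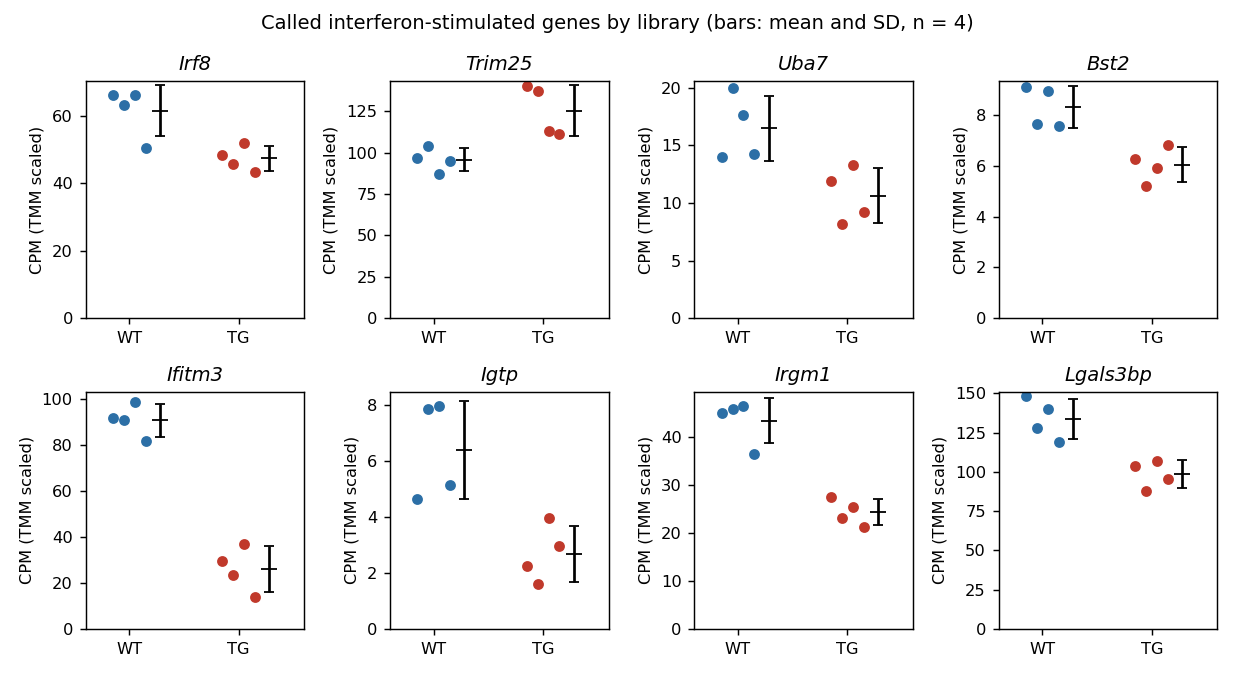
Level in CPM (vertical axes, each from 0) of the 8 called members in the 4 WT and 4 TG libraries, with points for libraries and bars for the mean and SD. Ifitm3 falls from 90.9 to 26.1 CPM on average, Trim25 is the member that rises, and Irf8 is the called member whose groups overlap.

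Samhd1, which depletes the nucleotides that viruses need for DNA synthesis, was among the most abundant members and was not called. It measured 114, 102, 90.3 and 89.5 CPM in TG and 89.3, 90.2, 79 and 90 CPM in WT. TG-1 and TG-2 were highest, while TG-3 and TG-4 lay within or near the WT values. The log2 fold change of 0.18 ± 0.10 was not called (edgeR adjusted p = 0.192). Ifi27, an interferon alpha-inducible gene, was the remaining member with a positive value, at 0.31 ± 0.15 (edgeR adjusted p = 0.156). Ifi35, Xaf1 and Rtp4 had log2 fold changes of -0.06, -0.22 and -0.23 and were not called. Scaling by total counts alone put Ifi35 at 0.05.

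The GTPase genes, which are induced mainly by interferon gamma, gave both clear calls and the widest spread between libraries. Irgm1, a regulator of the immunity-related GTPases and of autophagy, was by far the most abundant of them. It measured 27.5, 23.1, 25.5 and 21.3 CPM in TG and 45.1, 45.8, 46.4 and 36.4 CPM in WT. WT-4 stood below the other WT libraries, yet above every TG library. Irgm1 fell by 0.83 ± 0.11 on the log2 scale (SE, edgeR adjusted p = 0.000587), the smallest adjusted p of any member. Igtp, an immunity-related GTPase also known as Irgm3, measured 2.25, 1.62, 3.95 and 2.96 CPM in TG and 4.63, 7.86, 7.96 and 5.13 CPM in WT. Again no TG library reached the WT range. Its log2 fold change was -1.24 ± 0.27 (SE, edgeR adjusted p = 0.00727).

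Irgm2 measured 4.81, 1.97, 8.12 and 2.2 CPM in TG and 6.79, 9.18, 10.2 and 5.58 CPM in WT, so that TG-3 lay inside the WT range. Its log2 fold change of -0.86 ± 0.43 was not called (edgeR adjusted p = 0.196), and the adjusted p was 0.0151 without TG-3, at a log2 fold change of -1.39. Iigp1, an effector that disrupts parasite vacuoles, had the lowest fitted value of the list. It measured 0.937, 0.492, 1.41 and 0.0759 CPM in TG and 1.52, 6.33, 3.88 and 1.12 CPM in WT. TG-3 exceeded WT-4, and the log2 fold change of -2.07 ± 0.69 was not called (edgeR adjusted p = 0.0687, and 0.0375 without WT-4). Irgm2 and Igtp overlap in the annotation on the same strand, and 4.37% of the 75-base windows of Igtp and 5.83% of those of Irgm2 also occur in transcripts of other genes. For Tgtp1 this share was 78.7%, through Tgtp2 and Gm12185 together, so its counts are uncertain. Gm12185 also overlaps the exons of Tgtp1 on the same strand.

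The guanylate-binding proteins coat pathogen vacuoles and bacteria. Gbp2 measured 2.06, 0.211, 2.03 and 0.0759 CPM in TG and 2.48, 5.36, 3.21 and 0.818 CPM in WT. Gbp3 measured 1.31, 0.0703, 1.13 and 0.152 CPM in TG and 1.2, 2.43, 2.34 and 0.892 CPM in WT. TG-2 and TG-4 were nearly empty of both, while TG-1 and TG-3 overlapped with WT. Neither was called (log2 fold change -1.37 ± 0.82 for Gbp2 and -1.30 ± 0.61 for Gbp3), nor was Gbp7 at -0.50 ± 0.39. Gbp2 and Gbp3 are given by library because of a pattern seen in their values. TG-2 and TG-4 were the 2 lowest of the 8 libraries for 18 of the 41 members and for 15 of the 33 tested ones (45.5%), against 4.67% of all tested genes. The next pair of libraries, TG-4 and WT-1, held this place for 4 members. Over all tested genes the pair most often lowest was TG-1 and TG-2 (10.8%), which held it for 1 member. The pair of TG-2 and TG-4 was picked from the member values, so its share describes them and is no test. The summed level of the guanylate-binding proteins was 5.31, 2.18, 5.86 and 0.987 CPM in TG and 4.95, 11.3, 9.36 and 3.49 CPM in WT, and that of the immunity-related GTPases was 35.6, 27.5, 39.2 and 26.6 CPM in TG and 58.4, 70, 69.5 and 48.2 CPM in WT. The IRG sums did not overlap and the GBP sums did. Irgm1 made up most of the IRG sum, and without it the sums were 8.06, 4.36, 13.6 and 5.32 CPM in TG and 13.3, 24.3, 23.1 and 11.9 CPM in WT, with TG-3 inside the WT range.

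**Figure D3:**
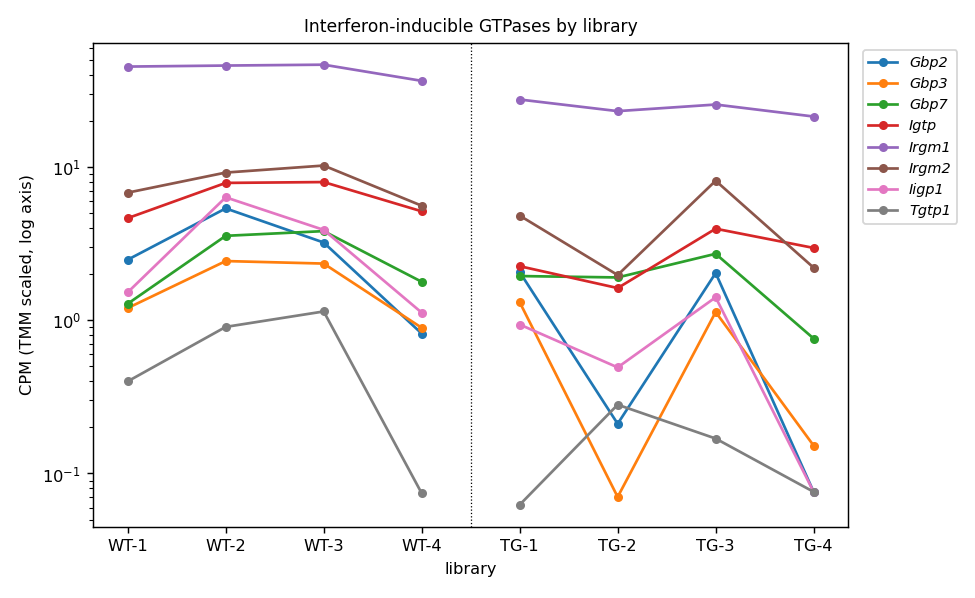
Level in CPM (vertical axis, log scale) of the 8 interferon-inducible GTPase genes in each library (horizontal axis), with lines joining the values of a gene within a group. Irgm1 forms the top line, near 45 CPM in WT-1 and 21 to 28 CPM in TG, and Gbp2 and Gbp3 drop in TG-2 and TG-4.

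The genes of the PARP9 and DTX3L complex, an ADP-ribosylating and ubiquitin-adding pair, were not called (Parp9 -0.13 ± 0.16 and Dtx3l -0.10 ± 0.14 on the log2 scale, the latter at 0.00 by total counts alone). These genes lie head to head with overlapping exons on opposite strands, and no source used here gives the strand setting of the counting. Parp14, a related ADP-ribosyltransferase, measured 14.6, 10.9, 11.8 and 8.96 CPM in TG and 13.6, 18.6, 14.9 and 15.4 CPM in WT. TG-1 lay above WT-1, and the log2 fold change of -0.43 ± 0.15 was not called (edgeR adjusted p = 0.0565). Without TG-1 or without WT-1 the adjusted p was 0.0347 and 0.0446. Lgals3bp, a secreted glycoprotein that binds galectins, had the highest mean of all members over the 8 libraries. It was first in WT, and in TG Trim25 and Samhd1 stood above it. It measured 104, 87.5, 107 and 95.5 CPM in TG and 148, 128, 140 and 119 CPM in WT. The groups did not overlap, and the log2 fold change was -0.44 ± 0.10 (SE, edgeR adjusted p = 0.00743).

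Divided by exon length (CPM per kilobase), Ifitm3 was the highest member, at a mean of 20.4 in TG and 71 in WT. Lgals3bp followed at 18.7 in TG and 25.4 in WT, and Trim25 at 21.7 in TG and 16.6 in WT. On this length-scaled level Ifitm3 was first in WT and Trim25 first in TG. Isg15, at 0.815 in TG and 1.29 in WT, ranked far below them. The members that carried most of the list's RNA were therefore Ifitm3, Lgals3bp, Trim25, Irf1 and Samhd1 rather than the IFIT, OAS or viperin genes.

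Other genes of the pathway were read from a list of 74 that are not members, of which 46 passed the filter. Of these, 7 were called lower (15.2%) and 0 higher, with a median log2 fold change of -0.06, beside 9.65% lower and 8.26% higher of all tested genes. Ifngr1 was the only gene above 0 with an unadjusted p below 0.05 in that edgeR fit, and DESeq2 and limma also called 0 higher. None of the 10 interferon genes looked for (alpha, beta, epsilon, kappa, gamma and lambda) had a count in any library. A count of 0 allows up to 3 counts, which is 0.185 to 0.229 CPM of the total counts, depending on the library.

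Among the receptors, Ifnar1, a chain of the type I receptor, was called lower. It measured 25.6, 25.2, 25.8 and 23.1 CPM in TG and 31.8, 35.1, 29.7 and 32 CPM in WT, without overlap (log2 fold change -0.37 ± 0.09 SE, edgeR adjusted p = 0.0124). It was not called with total counts alone (-0.25, adjusted p = 0.243), nor within the libraries without (-0.40, 0.103) or with Y-linked counts (-0.33, 0.209). The other type I chain, Ifnar2, was not called at -0.39 ± 0.19 (edgeR adjusted p = 0.176). The interferon gamma receptor chains Ifngr1 (0.24 ± 0.10, edgeR adjusted p = 0.118) and Ifngr2 (0.08 ± 0.10) were not called either. Ifnlr1 and Il10rb, the chains of the type III receptor, had log2 fold changes of 0.34 ± 0.20 and -0.17 ± 0.10. The kinases that sit on these receptors were not called, at -0.03 ± 0.08 for Jak1, -0.19 ± 0.09 for Jak2 and 0.13 ± 0.10 for Tyk2. All 9 receptor and kinase genes were expressed, at 3.05 CPM or more in every library.

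Socs3, a feedback inhibitor that is induced by several cytokines and mainly restrains the IL-6 family and STAT3, had the largest fall of the pathway list. It measured 8.94, 6.89, 7.72 and 6.38 CPM in TG and 59.8, 58.8, 17.6 and 17.9 CPM in WT. The groups did not overlap, and within WT the libraries without Y-linked counts were far above those with them. The log2 fold change was -2.35 ± 0.53 (SE, edgeR adjusted p = 0.0305). Leaving out any TG library or WT-1 took the adjusted p to 0.0628 or higher, up to 0.0923 without TG-2. With all 8 libraries, limma voom with quality weights did not call Socs3 either (log2 fold change -1.86, adjusted p = 0.0532). Socs1, the inhibitor most tied to interferon signalling, was not called.

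Sting1, which signals the presence of DNA in the cytosol, measured 13.9, 11.3, 13.4 and 11.8 CPM in TG and 30.7, 28.7, 17.1 and 24.5 CPM in WT (log2 fold change -0.99 ± 0.16 SE, edgeR adjusted p = 0.00181). Cgas and Mavs, which act beside it in DNA and RNA sensing, were not called. Of the further interferon-stimulated genes, 4 of 22 tested were called lower (18.2%, beside 9.65% of all tested genes). Zbp1, a sensor of Z-form nucleic acids that can start necroptosis, had 9.7 to 12.7 CPM in TG and 14.6 to 23.9 CPM in WT (log2 fold change -0.81 ± 0.15 SE, edgeR adjusted p = 0.00269). Its log2 fold change was -1.15 within the libraries without Y-linked counts. Within those with them it was -0.45 and not called (edgeR adjusted p = 0.2). Ifitm2, the neighbour and relative of Ifitm3, had 31.2 to 33.2 CPM in TG and 43.3 to 53.4 CPM in WT (log2 fold change -0.55 ± 0.09 SE, edgeR adjusted p = 0.00159). Lgals9, a galectin, had 199 to 245 CPM in TG and 316 to 345 CPM in WT (log2 fold change -0.58 ± 0.09 SE, edgeR adjusted p = 0.00135). Oas1a, an oligoadenylate synthetase, had a log2 fold change of -0.52 ± 0.15 (edgeR adjusted p = 0.0331). Its adjusted p reached 0.106 without TG-2 and was also above the threshold without TG-1, TG-4, WT-1 or WT-2. Oas1a was not called with total counts alone (-0.40, adjusted p = 0.19), nor within the libraries without (-0.78, 0.0509) or with Y-linked counts (-0.27, 0.541). Sting1, Ifitm2 and Lgals9 were not called within the libraries with Y-linked counts either.

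**Figure D4:**
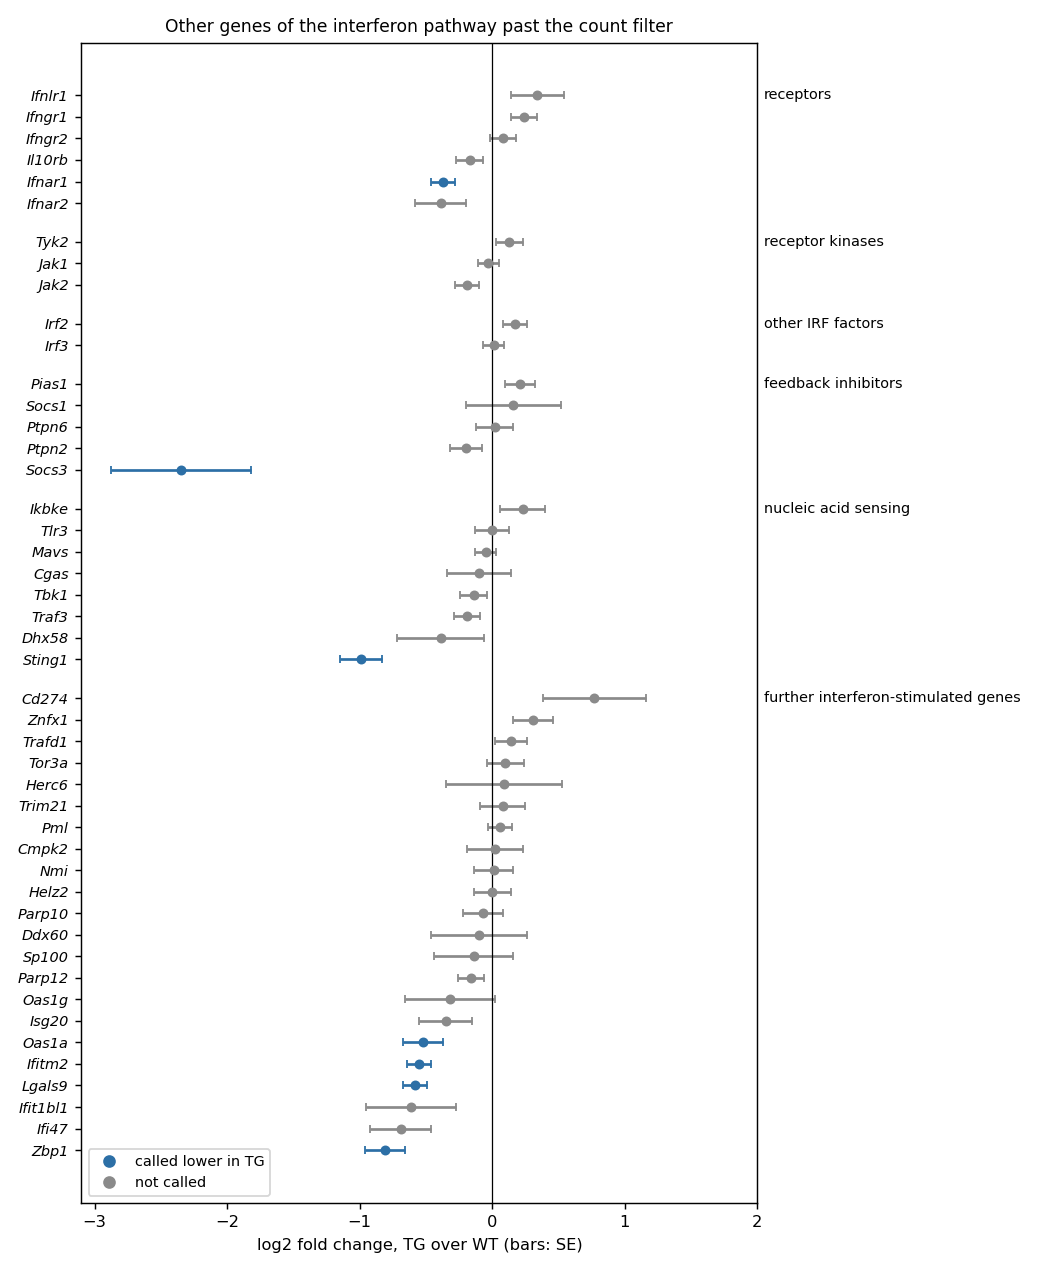
Log2 fold change of TG over WT (horizontal axis, bars are SE) for the 46 tested genes of the wider interferon pathway, grouped by role, with called genes in colour. The receptors span -0.39 to 0.34 with Ifnar1 the called one, and Socs3 lies farthest to the left at -2.35.

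The members were also compared within the libraries without Y-linked counts (2 TG and 2 WT) and within those with them (2 TG and 2 WT). The fold changes of the called members kept their sign in both. Ifitm3 had log2 fold changes of -1.78 without and -1.80 with Y-linked counts, and Irgm1 had -0.84 and -0.81. Igtp had -1.69 and -0.91, Lgals3bp -0.53 and -0.35, Uba7 -0.76 and -0.49, Irf8 -0.46 and -0.28, Bst2 -0.55 and -0.38, and Trim25 0.46 and 0.30. With 2 libraries a group, edgeR called 6 members lower without Y-linked counts (Ifitm3, Irgm1, Igtp, Lgals3bp, Irf8 and Cxcl10, which passed the filter of that fit) and 1 higher (Trim25), but 1 lower (Irgm1) and 0 higher with them. Over all genes, 5.29% were called lower and 4.15% higher without and 0.857% and 0.940% with Y-linked counts. The difference between these effects was called for 0 members by an edgeR interaction term. The lowest interaction p was 0.0286 for Dtx3l before adjustment, the only member under 0.05, with an adjusted p of 0.831.

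Leaving out each library in turn gave 8 fits. Ifitm3, Irgm1, Igtp and Lgals3bp were called lower in 8 of 8, Uba7 in 7, Irf8 in 5 and Bst2 in 2, while Trim25 was called higher in 6. The count of members called lower was 4 without TG-2, where 570 of 12086 genes in all were called lower, in place of 1151 of 11929. Irgm1 was also called under all 12 other settings tried, with log2 fold changes from -0.91 to -0.72 over the 20 fits.

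**Figure D5:**
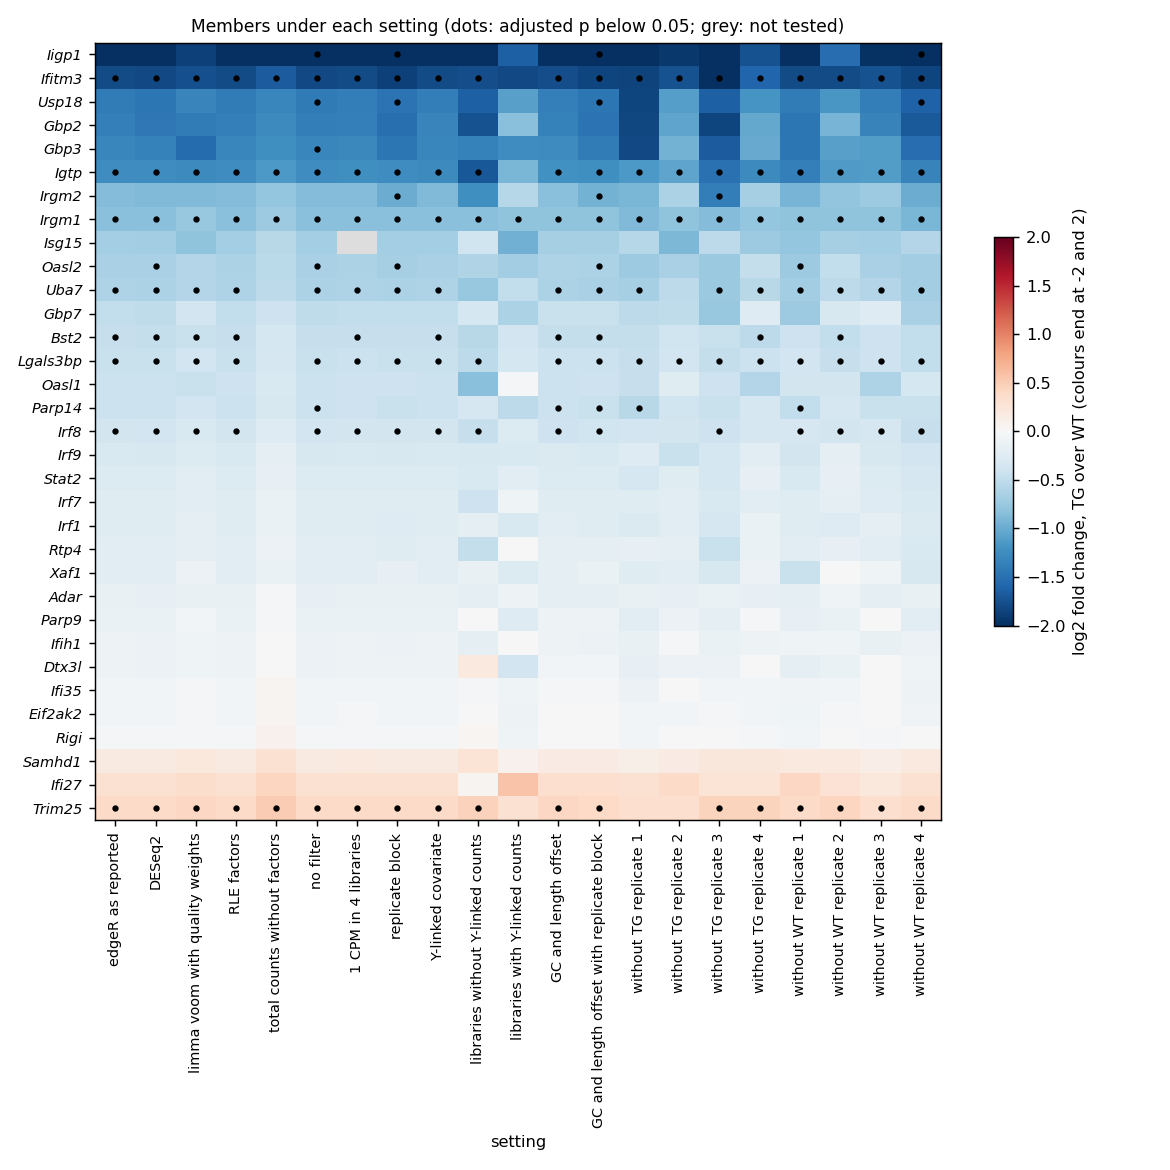
Log2 fold change of TG over WT (colour, ending at -2 and 2) of the 33 tested members (rows) under the reported fit and 20 others (columns), with dots where the adjusted p was below 0.05. Irgm1 has a dot in every column, Ifitm3 and Igtp lack it only in the libraries with Y-linked counts, and Bst2 loses it in most columns that leave out a library.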

How the data were processed

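RNA of FACS-sorted Paneth cells had been isolated with a column kit and prepared with a stranded poly(A) kit. A single table was deposited, with whole-number counts for each Ensembl gene ID in each library. The submitters' processing notes name FastQC 0.12.0, STAR 2.7.0a, DESeq2 and mm39. The counting tool, its strand setting and its annotation are given in no source used here, so overlapping and antisense genes cannot be told apart. GENCODE M39 (GRCm39) matched 54749 of 55414 IDs, and the rest took no more than 0.0150% of any library.

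Counts were tested with edgeR 4.0.16 in R 4.3.3 (robust quasi-likelihood, TMM, default filter by group, all 8 libraries, no covariate), with Benjamini-Hochberg adjustment over 11929 genes and calls at 0.05. The SE of a log2 fold change is its size over the root of the F statistic. CPM are TMM scaled. Intervals and limits from counts cover counting error only. Promoters came from the GRCm39 sequence and read sharing from 75-base windows of GENCODE transcripts. Scripts for these fits were tested on simulated counts.

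Every member called was shown by library, with the 3 most abundant, the largest fall and rise, and members lost or gained when a library was left out. Members and lists were chosen with earlier results of these data known. Alternatives were DESeq2 1.42.0, limma 3.58.1 (voom, quality weights), RLE scaling, total counts only, the filter dropped or set to 1 CPM in 4 libraries, a block on replicate number, Y-linked counts as a covariate or a subset, a GC and length offset, that offset with the block, and each library left out.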

Additional observations from a re-analysis of the deposited data

Results flagged for a closer look

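Samhd1 measured 79 CPM in WT-3, below the other WT libraries, which lay between 89.3 and 90.2 CPM. The gap took 0.921 of the range of the group, more than Dixon's 95% limit for 4 samples. Irgm1 measured 36.4 CPM in WT-4, below the other WT libraries at 45.1 to 46.4 CPM, with a gap of 0.872 of the range. Chance alone gives such a gap in about 1 group in 20, which is about 2.1 of the 42 groups examined, and 2 were found.

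The change of Socs3 between TG and WT differed between the libraries with and without Y-linked counts by an edgeR interaction term. The log2 fold change was -1.32 with and -2.90 without Y-linked counts, a difference of 1.58 (adjusted p = 0.0456, 4 libraries of each kind). Over all tested genes 3 such differences were called, and 684 had an unadjusted p below 0.05. Its WT levels were 59.8 and 58.8 CPM without and 17.6 and 17.9 CPM with Y-linked counts, and its TG levels were 6.38 to 8.94 CPM in all 4.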

How the results depend on the processing

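The median log2 fold change of the members lay between -0.42 and -0.26 under all alternatives, against -0.37. The count of 7 members called lower became 3 with total counts alone (Ifitm3, Irgm1 and Igtp), 14 without a filter, 1 in the libraries with Y-linked counts, 12 with the replicate block added to a GC and length offset, and 4 to 8 when a library was left out. The count of 1 called higher became 0 in the libraries with Y-linked counts and 0 to 1 when a library was left out. Pathway genes called lower, 7 in the reported fit, were 1 in the libraries with Y-linked counts. Those called higher, 0 in the reported fit, were 1 with that offset and 0 to 1 when a library was left out. Of all genes, 1151 lower and 985 higher became 263 lower with total counts alone (787 higher), 1337 lower without a filter (of 21291), 1245 lower with the offset and block together (of 11917), 638 and 500 in the libraries without and 103 and 113 in those with Y-linked counts, and 553 to 1183 and 485 to 1045 when a library was left out (553 and 533 without TG-1, 570 and 485 without TG-2). Fits within the libraries with or without Y-linked counts hold 2 against 2 libraries. For the other changes the cause was not tested. Total counts alone moved the median of all genes to 0.12.

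The labels do not say whether replicate numbers pair the samples. Deviations of same-numbered libraries correlated at 0.076, 0.067, 0.286 and 0.231, and libraries of unlike number were not set beside them. Replicates 1 and 2 lacked Y-linked counts in both groups, and replicates 3 and 4 had them. The replicate block gave 10 members called lower, with Usp18 (adjusted p = 0.0441), Oasl2 (0.0362), Irgm2 (0.0384) and Iigp1 (0.0118) gained and Bst2 (0.0532) lost. Of all 11929 genes it called 1164 lower.

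Over 20 alternatives, the 8 called members kept their direction throughout, with 133 values past the threshold and 27 not. The members that were not called gave 22 values past the threshold and 15 of opposite sign. With total counts alone the latter were Ifih1 0.01, Rigi 0.09, Eif2ak2 0.06, Ifi35 0.05 and Dtx3l 0.00, with the kinase gene Jak1 at 0.09. In the libraries without Y-linked counts they were Rigi 0.04, Eif2ak2 0.01 and Dtx3l 0.20, and in those with them Rtp4 0.01, with Tyk2 at -0.06. Eif2ak2 was 0.01 with the offset, with and without the block. With a library left out, Rigi ranged from -0.06 to 0.01 (highest without TG-3 or WT-4), Xaf1 from -0.44 to 0.00 (WT-2), Dtx3l from -0.19 to 0.00 (WT-3) and Jak1 from -0.07 to 0.00 (WT-4). Among the 8 members kept out by the filter, dropping it gave 3 calls (Ifi44, Tgtp1 and Cxcl10), DESeq2 called Ifi44, and Cxcl10 was called in the libraries without Y-linked counts. They had 2 to 74 counts over all libraries.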
